A study of Mus musculus with 18 samples.

Results

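The aryl hydrocarbon receptor and 6 genes around it were followed through 6 days of mouse intestinal organoid culture. The members were taken by symbol from the deposited table of 24116 genes: the receptor Ahr, its partner Arnt, the repressor Ahrr, and Cyp1a1, Cyp1b1, Tiparp and Aldh3a1, whose transcription the receptor is known to drive. All 7 were found. The family was selected on measured values, the RPKM of days 0 and 1, in which Cyp1a1 was among the genes with the highest rise, so values of days 0 and 1 are given as a description, without a test.

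The aryl hydrocarbon receptor is a ligand-activated transcription factor of the bHLH-PAS family. Held in the cytoplasm by HSP90 chaperones, it moves to the nucleus when it binds a ligand such as a dioxin, an indole or a tryptophan metabolite, pairs with ARNT and binds DNA at a short core sequence. The CYP1 enzymes it induces oxidise many of its own ligands, while AHRR and TIPARP act back on the receptor, and in the intestinal epithelium this system is known as a sensor of dietary and microbial compounds.

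Intestinal organoids are epithelial structures grown from stem and progenitor cells, here from C57BL/6 wild type mice aged 8 weeks and kept in IntestiCult medium before the course began. RNA was sequenced in 18 libraries, 3 for each day from 0 to 5, each a pool of 30 wells. From day 0 to day 1 the basal medium with EGF, Noggin and R-spondin (ENR) also held 3 µM CHIR99021 (a GSK3 inhibitor), 10 µM Y-27632 (a ROCK inhibitor) and 20% of a medium conditioned with Wnt3a. CHIR99021 was left out after day 1, the other 2 additions after day 3, and days 3 to 5 were in ENR alone. Every library of a given day therefore had the same medium, there was no arm without CHIR99021, and the day, the change of medium and the change of cells cannot be told apart. The titles name 3 mice: replicate 1 is mouse 1, replicate 3 is mouse 3, and replicate 2 is mouse 2 except at days 1 and 2, where it is also titled mouse 1. The p-values below measure the spread between these libraries. DNase was left out for replicate 1 on all days (6 libraries) and used for the other 12.

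The implied depth was 43010000 to 53930000 reads a library, and 9953 to 10758 genes reached 1 RPKM (reads divided by gene length in kilobases and by library size). Days 1 to 4 were not cleanly separated. Over all tested genes, 10 of the 18 libraries correlated more with the mean of another day than with the rest of their own. All of these were of days 1 to 4, and each library of days 0 and 5 was closest to its own day. The lowest correlation with the own day was 0.933, for day 4 replicate 3 (0.98 with day 2). Next came day 3 replicate 1 at 0.946 (0.991 with day 4), day 3 replicate 2 at 0.95 (0.978 with day 1), day 4 replicate 1 at 0.95 (0.98 with day 5) and day 2 replicate 2 at 0.955 (0.985 with day 3). The summed level of 9 epithelial markers was 2344 to 7337 RPKM, against 0.708 to 6.57 for 9 mesenchymal, 0.626 to 3.81 for 9 immune and 0.0494 to 0.379 for 5 endothelial markers. The matrix genes Dcn and Lum and the T cell gene Cd3d were at 0 in all 18 libraries, and the members of these lists that reached 1 RPKM in any library were Vim and Pdgfrb (mesenchymal) and Cd68 and Itgam (immune).

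The induced genes of the family were high at day 1 and low at days 0 and 5, while the receptor stayed between 3.13 and 5.59 RPKM. Cyp1a1 went from 1 ± 0.731 RPKM at day 0 to 142 ± 59 at day 1 and back to 0.669 ± 0.295 at day 5 (mean ± SD, n = 3 for each day). Ahrr, Cyp1b1 and Aldh3a1 were also lowest at days 0 and 5, at far lower levels. Arnt was highest at day 0, and Tiparp was highest at day 5.

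The core of the receptor's binding site is GCGTG, and the 250 bases before the RefSeq transcript start of the 4 targets and feedback genes with an entry are shown because these are the members whose levels are compared below. For Cyp1a1 this start is at 57697613, inside the span of the gene, which a longer transcript extends upstream. The sequences are those of RefSeq for GRCm38.p6 (the mm10 build), read 5′ to 3′ on the strand of the gene, and capitals mark each GCGTG, or CACGC where the core lies on the opposite strand.
Cyp1a1, chr9:57697363-57697612, plus strand: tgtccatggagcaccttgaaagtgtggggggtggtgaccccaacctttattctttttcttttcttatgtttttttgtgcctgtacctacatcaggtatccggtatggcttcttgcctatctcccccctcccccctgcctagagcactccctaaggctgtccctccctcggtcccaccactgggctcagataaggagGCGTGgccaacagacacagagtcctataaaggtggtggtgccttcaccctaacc
Ahrr, chr13:74292332-74292581, minus strand: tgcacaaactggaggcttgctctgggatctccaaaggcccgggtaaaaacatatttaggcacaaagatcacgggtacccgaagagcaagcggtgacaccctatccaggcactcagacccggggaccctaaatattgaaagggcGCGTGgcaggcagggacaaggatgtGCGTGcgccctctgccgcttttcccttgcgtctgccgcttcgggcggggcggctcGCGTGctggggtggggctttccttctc
Cyp1b1, chr17:79715062-79715311, minus strand: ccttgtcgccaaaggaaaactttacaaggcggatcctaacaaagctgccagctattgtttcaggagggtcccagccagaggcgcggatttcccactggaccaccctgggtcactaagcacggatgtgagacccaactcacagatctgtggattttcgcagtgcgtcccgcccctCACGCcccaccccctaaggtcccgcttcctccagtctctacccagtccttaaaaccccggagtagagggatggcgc
Tiparp, chr3:65528197-65528446, plus strand: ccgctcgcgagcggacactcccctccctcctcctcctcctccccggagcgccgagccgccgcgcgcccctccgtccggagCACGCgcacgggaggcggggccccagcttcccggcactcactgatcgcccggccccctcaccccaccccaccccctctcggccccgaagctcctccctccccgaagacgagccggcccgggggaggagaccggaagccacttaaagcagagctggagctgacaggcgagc

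Counting the base before the transcript start as -1, the core began at -54 in Cyp1a1, at -107, -82 and -27 in Ahrr, at -76 on the opposite strand in Cyp1b1 and at -170 on the opposite strand in Tiparp. The window of Arnt held 1 core, at -29, and its sequence is not shown. Of all 32851 promoter windows of this length, 9250 (28.2%) held the core on either strand and 911 (2.77%) held at least 3. The longer form TNGCGTG was in 4.1% of windows and, among the windows of these members, in that of Ahrr alone, once. Sequence further upstream was not searched, so a gene whose window lacks the longer form may still hold it there. The matches of both forms are letters in a window and not measured binding. Whether the receptor binds at any marked core was not tested. The table of promoter sequences gave entries for 5 of the 7 members.

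The receptor itself varied little. Ahr (Entrez 11622, chromosome 12, 35497979 to 35534989 in mm10) had 5.05, 4.35 and 3.13 RPKM in replicates 1, 2 and 3 at day 0, 4.47, 4.29 and 4.75 at day 1, and 5.24, 5.58 and 4.45 at day 2. It had 5.59, 3.99 and 5.08 at day 3, 5.23, 5.34 and 4.9 at day 4, and 3.66, 4.27 and 4.2 at day 5. The day means ran from 4.04 ± 0.334 at day 5 through 4.18 ± 0.968 at day 0, 4.5 ± 0.235 at day 1, 4.88 ± 0.818 at day 3 and 5.09 ± 0.577 at day 2 to 5.16 ± 0.229 at day 4 (SD, n = 3). Neighbours in this order overlapped at every step, and 4 of the 15 pairs of days did not overlap. Day 1, where Cyp1a1 peaked, had the third lowest mean for Ahr.

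Arnt (Entrez 11863, chromosome 3, 95434367 to 95497240), the partner with which the receptor binds DNA, had 7.8, 8.02 and 8.46 RPKM at day 0 and 5.69, 5.55 and 5.4 at day 1. The day 1 level was 0.73, 0.692 and 0.638 of that of day 0 in replicates 1, 2 and 3. The later days had 5.84, 6.23 and 5.96 RPKM (day 2), 5.7, 5.85 and 5.95 (day 3), 5.05, 5.79 and 6.19 (day 4) and 4.85, 6.49 and 7.07 (day 5). All 3 libraries of day 0 were above each of the other 15, and the other 5 days overlapped with their neighbours in the order of means. The partner was at its highest on a day on which Cyp1a1 was low, and at 5.4 to 5.69 RPKM on the day on which Cyp1a1 was high.

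**Figure D1:**
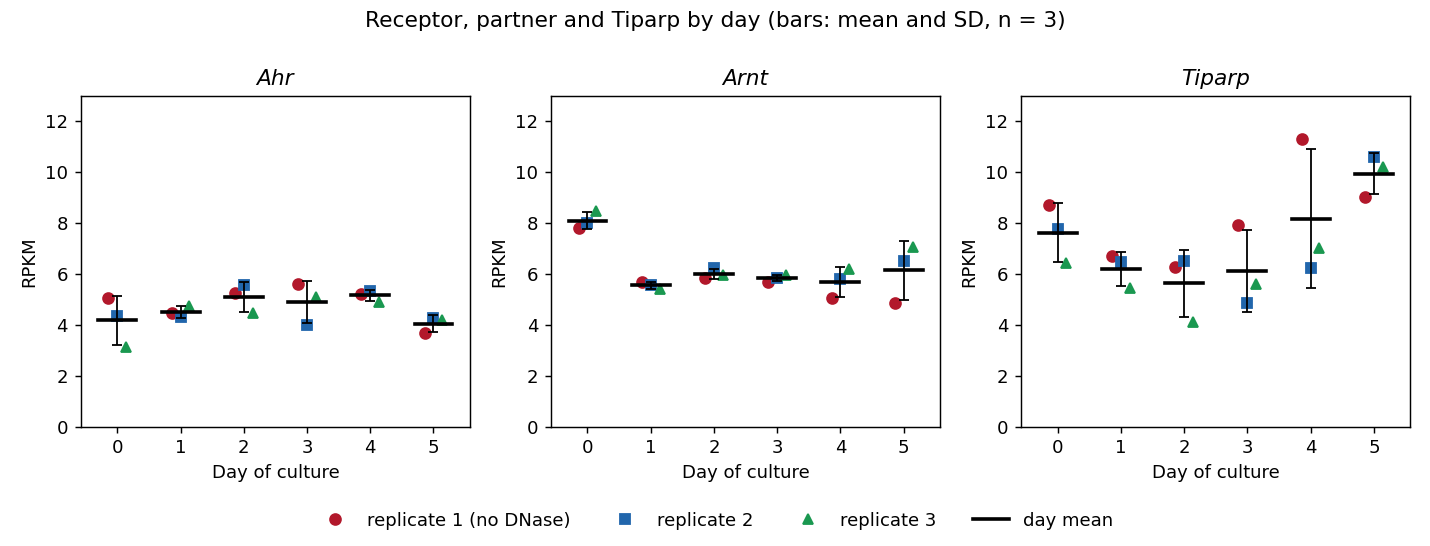
Level in RPKM of Ahr, Arnt and Tiparp in each library (points; circles are replicate 1, squares replicate 2, triangles replicate 3) by day of culture, with the day mean and SD (n = 3). Arnt at day 0 lies between 7.8 and 8.46 RPKM, above every later library, and Ahr stays between 3.13 and 5.59.

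Cyp1a1 (Entrez 13076, chromosome 9, 57687928 to 57703824), the monooxygenase most used as a readout of receptor activity, covered the widest range. At day 0 it had 0.581, 1.84 and 0.578 RPKM in replicates 1, 2 and 3, and at day 1 it had 78.1, 194 and 154. The ratio of day 1 to day 0 was 134, 105 and 267 by replicate number and 142 for the means, and in a bulk sample more cells with the transcript and more transcript per cell cannot be told apart. At day 2 the libraries had 22.4, 92.1 and 55.7 RPKM, at day 3 they had 5.72, 56.5 and 47.5, at day 4 they had 1.21, 13 and 6.19, and at day 5 they had 0.995, 0.592 and 0.42.

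Each replicate number gave a lower value at every step from day 1 to day 5. Replicate 1 was the lowest of the 3 at each day from 1 to 4, and at day 5 it was the highest. One day after CHIR99021 had been left out, Cyp1a1 stood at 28.7%, 47.4% and 36.1% of its day 1 level, and the ranges of days 1 and 2 overlapped. By day 5 the day 1 level was 78.5, 328 and 367 times the day 5 level in replicates 1, 2 and 3. Of the 15 pairs of days 10 did not overlap, and neighbours in the order of means (day 5, 0, 4, 3, 2, 1) all did. The reads behind these values, summed over the 3 libraries of a day, were 404 at day 0, 55116 at day 1, 22477 at day 2, 14024 at day 3, 2602 at day 4 and 272 at day 5.

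**Figure D2:**
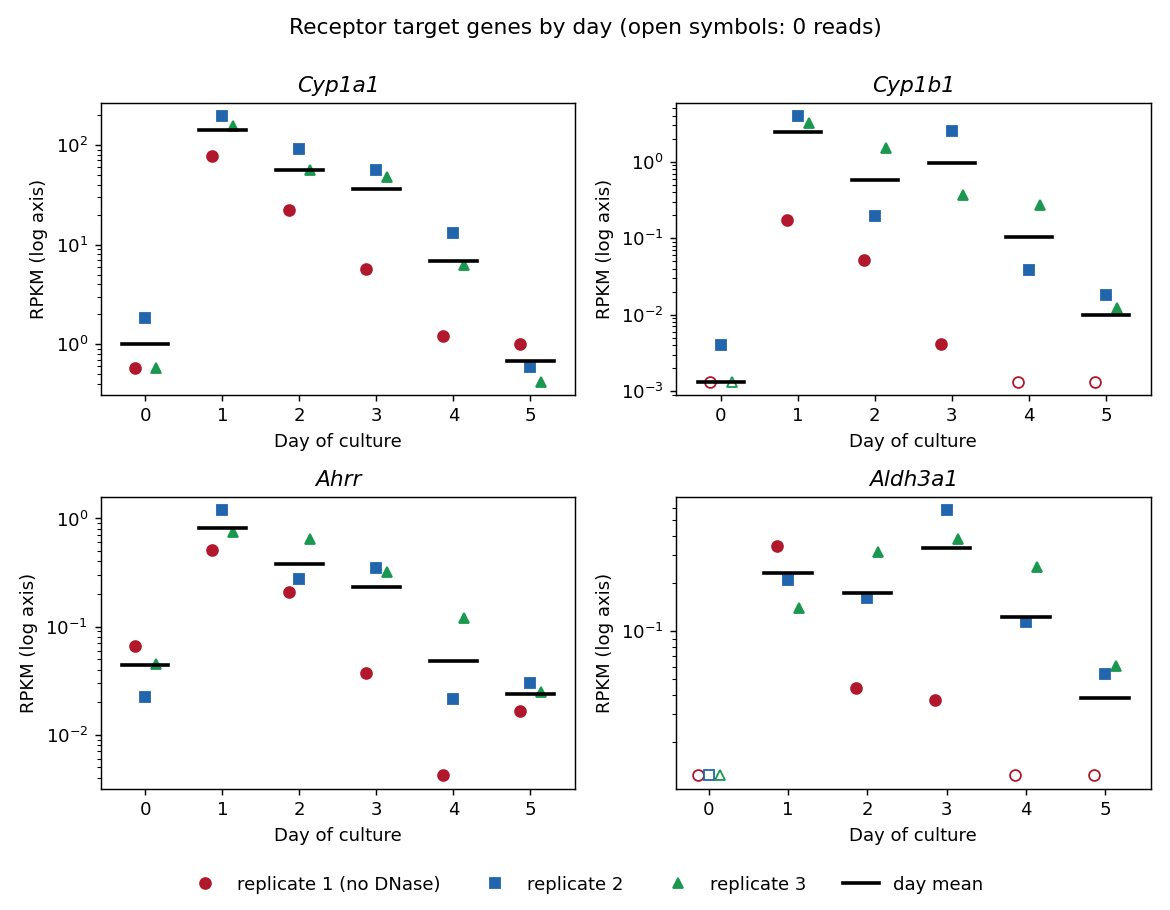
Level in RPKM (log axis) of Cyp1a1, Ahrr, Cyp1b1 and Aldh3a1 in each library by day of culture; circles are replicate 1, squares replicate 2, triangles replicate 3, the bar is the day mean, and open symbols at the foot stand for libraries at 0, drawn at an arbitrary height. Cyp1a1 peaks at 78.1 to 194 RPKM at day 1 and is at 0.42 to 0.995 at day 5; a day mean of 0 is not drawn.

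On the log2(RPKM + 1) scale Cyp1a1 differed by 6.12 between day 1 and day 0, the third highest increase of the 11111 genes that passed the filter of 1 RPKM in 3 libraries. From day 1 to day 5 it fell by 6.34, the lowest value of all 11111. Both values belong to comparisons that chose the member or share its day 1 libraries. Day 5 and day 0 differed by -0.22 and overlapped. At day 3 the mean of 36.6 RPKM became 52 without replicate 1, 26.6 without replicate 2 and 31.1 without replicate 3. At day 4 the mean of 6.79 RPKM became 9.58, 3.7 and 7.09 in the same order.

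Cyp1b1 (Entrez 13078, chromosome 17, 79706940 to 79715061), a related monooxygenase that also acts on estrogens and polycyclic hydrocarbons, was at 0, 0.004 and 0 RPKM at day 0 and at 0.172, 3.91 and 3.18 at day 1. It had 0.0515, 0.197 and 1.5 RPKM at day 2, 0.00413, 2.54 and 0.362 at day 3, 0, 0.0383 and 0.274 at day 4, and 0, 0.0179 and 0.0121 at day 5. Replicate 1 was the lowest at every day from 1 to 4, and at day 1 it was far below the other 2. The reads summed over a day were 1 at day 0, 1690 at day 1 and 7 at day 5, which gives a ratio of day 1 to day 5 of 241 at equal depth (95% counting interval 117 to 600.4). Against the single read of day 0 the ratio was 1707 (95% counting interval 306 to 67480). Its day 3 mean of 0.968 RPKM rested on replicate 2, and was 0.183 without it and 1.45 without replicate 1. Its day 4 mean of 0.104 was 0.0191 without replicate 3.

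Aldh3a1 (Entrez 11670, chromosome 11, 61208510 to 61218418), an aldehyde dehydrogenase that the receptor induces in several tissues, was at 0 in all 3 libraries of day 0, which allows up to 0.0343, 0.036 and 0.0378 RPKM (3 reads a library). It had 0.344, 0.209 and 0.141 RPKM at day 1, 0.0442, 0.163 and 0.317 at day 2, 0.0372, 0.577 and 0.383 at day 3, 0, 0.115 and 0.254 at day 4, and 0, 0.0539 and 0.0606 at day 5. Replicate 1 was the highest at day 1 and the lowest at each later day. At 59 reads over day 1, 79 over day 3 and 9 over day 5, the day 1 level was at least 6.62-fold higher than at day 0 (floor of 3 reads in each library). It was 6.54 times the day 5 level (95% counting interval 3.22 to 15). Unlike the other 3, its highest mean was at day 3, at 0.332 ± 0.273 RPKM against 0.231 ± 0.103 at day 1, and these days overlapped. The day 3 mean was 0.21 without replicate 2, below that of day 1, and 0.48 without replicate 1, and without day 4 replicate 3 the day 4 mean was 0.0575 in place of 0.123.

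The intervals cover counting error only, and reads without molecular identifiers are not independent molecules. The reads of Cyp1b1 and Aldh3a1 follow from the shortest gene length for which their values were whole reads, and for Aldh3a1 24 lengths met this.

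Ahrr (Entrez 11624, chromosome 13, 74211118 to 74292331), which competes with the receptor for ARNT and is itself a target, had 0.0663, 0.0225 and 0.0448 RPKM at day 0 and 0.514, 1.19 and 0.756 at day 1. It had 0.207, 0.275 and 0.645 RPKM at day 2, 0.0371, 0.347 and 0.318 at day 3, 0.00419, 0.0215 and 0.119 at day 4, and 0.0166, 0.0302 and 0.0249 at day 5. The day 1 libraries were above all of days 0, 3, 4 and 5, and overlapped with day 2. The ratio of day 1 to day 0 was 7.76, 53.1 and 16.9 by replicate number, and that of day 1 to day 5 was 31, 39.4 and 30.3. Replicate 1 was the lowest at each day from 1 to 4. At equal depth the summed reads gave a ratio of 17.8 for day 1 to day 0 (95% counting interval 13.7 to 23.5). Without day 4 replicate 3 the day 4 mean was 0.0128 in place of 0.0481 RPKM.

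Tiparp (Entrez 99929, chromosome 3, 65528447 to 65555518), an ADP-ribosyltransferase that marks the receptor for degradation, did not follow the other targets. It had 8.7, 7.76 and 6.41 RPKM at day 0, 6.7, 6.46 and 5.45 at day 1, and 6.27, 6.51 and 4.11 at day 2. It had 7.92, 4.84 and 5.6 at day 3, 11.3, 6.22 and 7 at day 4, and 9.04, 10.6 and 10.2 at day 5. The 3 libraries of day 5 were above all of days 0 to 3, and the order of means (day 2, 3, 1, 0, 4, 5) overlapped at every step. Day 1, the peak of Cyp1a1, had the third lowest mean for Tiparp.

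From day 0 to day 1, 4 of the 7 members (Cyp1a1, Ahrr, Cyp1b1 and Aldh3a1) were higher without overlap of the libraries, and Arnt was lower without overlap. Of the 18735 genes with a value above 0, 14.6% were higher and 16.4% lower in this way, but the contrast chose the members, so nothing is read from the count. From day 1 to day 5, 5 members (Cyp1a1, Ahrr, Cyp1b1, Aldh3a1 and, by 0.13 on the log2 scale, Ahr) were lower without overlap, as were 23% of the same genes, and 1 member, Tiparp, was higher in this way (15.5% of the genes). This contrast uses the day 1 libraries too, and nothing is read from it. In the fit over all genes, 18.6% of the 11111 tested were called between day 0 and day 1, 9.54% higher and 9.05% lower. The filter kept 5 of the 7 members, and Cyp1b1 passed it only through the libraries in which it was high. Ahrr and Aldh3a1 were too low.

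The tested comparison whose log2 change uses neither day 0 nor day 1 is day 5 against day 2. Its filter and its estimate of spread still draw on all 18 libraries, so its p-values are not independent of days 0 and 1. It is also not recorded whether later days had been seen when the members were picked. Of the 5 members tested, 1 was called higher and 1 lower, where 5.8% of all tested genes were called higher and 5.95% lower (11.7% in either direction). Cyp1a1 fell by 4.91 ± 0.76 (log2, SE; limma, Benjamini-Hochberg adjusted p = 0.00196), the lowest value of the 11111 genes, and all 3 libraries of day 5 were below all 3 of day 2. The call held under all 26 alternatives, with adjusted p from 9.06e-05 to 0.0126. The means differed 84.7-fold.

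Tiparp rose by 0.74 ± 0.21 in the same test (log2, SE; limma adjusted p = 0.0391), with all 3 libraries of day 5 above day 2. This call was lost when any 1 of 8 libraries was left out (adjusted p = 0.0507 to 0.165, the highest without day 2 replicate 3) and without the filter on low values (0.0603). The change of Ahr was -0.27 ± 0.15 (adjusted p = 0.197), that of Arnt 0.01 ± 0.12 (adjusted p = 0.947) and that of Cyp1b1 -0.54 ± 0.49 (adjusted p = 0.438), all by limma. Over all genes the median change was -0.165, and it was -0.033 after the libraries were rescaled to each other, so Tiparp lay further from the median of all genes than from 0. Across the 18 libraries, Cyp1a1 had a Pearson r of 0.87 with Ahrr, 0.74 with Cyp1b1, 0.71 with Aldh3a1, 0.27 with Ahr, -0.45 with Arnt and -0.76 with Tiparp on the log2 scale. These r values describe libraries that share days and mice. Ahrr and Cyp1b1 rest on few reads outside day 1 to day 3, and Cyp1b1 had 1 read in day 3 replicate 1. Aldh3a1 rests on few reads throughout, at most 79 summed over a day.

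**Figure D3:**
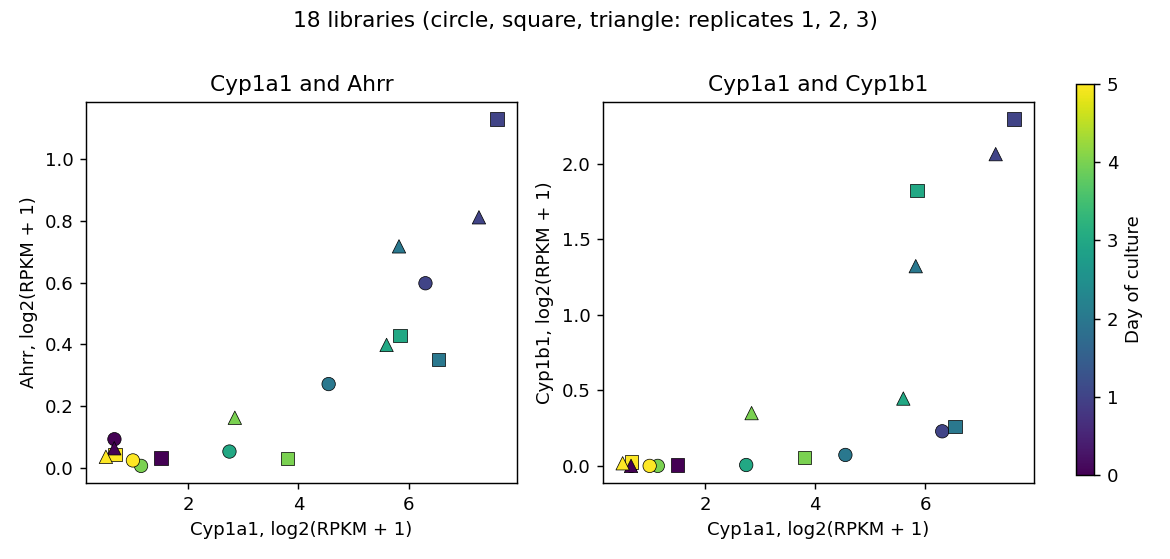
Level of Ahrr (left) and Cyp1b1 (right) against that of Cyp1a1, all as log2(RPKM + 1), in each of the 18 libraries; colour gives the day, and circles, squares and triangles are replicates 1, 2 and 3. Ahrr is high where Cyp1a1 is high (r of 0.87), and Cyp1b1 is spread more widely (r of 0.74).

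At days 1 to 4 the libraries of replicate 1, from mouse 1 and without DNase, had the lowest Cyp1a1, Cyp1b1 and Ahrr. DNase treatment and the replicate number cannot be told apart. Replicate 2 of days 1 and 2 is also titled mouse 1, with DNase, and had the highest Cyp1a1 of its day, at 194 and 92.1 RPKM. The summed level of 10 enterocyte markers moved over the same days: it was 1654 to 2286 RPKM at day 0, 2947 to 6968 at day 1, 2830 to 12239 at day 2, 2850 to 12506 at day 3, 4659 to 31522 at day 4 and 21414 to 25653 at day 5. Its part in the fall of Cyp1a1 was not tested.

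Genes reported to respond to the receptor beyond the members moved in both directions. Of 16 listed, 15 were in the table and 12 were tested. This list and those that follow were chosen with earlier results of these data known. Their counts and adjusted p-values are therefore a description and not an independent test. From day 0 to day 1, 4 rose and 2 fell, and the median change was 0.46, against -0.00 over all genes tested, of which 9.54% were called higher and 9.05% lower. From day 1 to day 5, 1 rose and 2 fell (median 0.22 against -0.15 over all genes), where 27.8% of all genes were called, 11.8% higher and 16.1% lower. From day 0 to day 5, 4 rose and 1 fell (median 0.53 against -0.17), where the shares were 11.4% and 13%. Ereg is counted among the 4 that rose to day 1 and the 2 that fell from it. It passed the filter only through libraries in which it was high, so both of these counts lean on the filter.

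Gsta1, a glutathione S-transferase, had 61.6, 98.8 and 36.2 RPKM at day 0 and 264, 285 and 494 at day 1. It rose by 2.44 ± 0.52 (log2, SE; limma adjusted p = 0.00482) and was still at 325 ± 142 RPKM at day 5 (SD, n = 3), a rise of 2.32 ± 0.52 over day 0 (adjusted p = 0.00802; with the 12 DNase-treated libraries, 0.0801). Because close copies of glutathione S-transferase genes exist, its value is uncertain where reads could be split among them. Nqo1, the quinone reductase, rose by 1.39 ± 0.36 from 27.6 ± 9.57 to 74.8 ± 29.3 RPKM (adjusted p = 0.0153), a call lost without day 0 replicate 2 (0.052), day 0 replicate 3 (0.0764) or day 1 replicate 3 (0.0822). Xdh, xanthine dehydrogenase, rose by 1.39 ± 0.45 from 5.25 ± 1.05 to 16.3 ± 7.01 RPKM (adjusted p = 0.0436). That call ended on leaving out any 1 of 11 libraries (0.0508 to 0.171), with a replicate block (0.0511) and with a factor for the mouse (0.075). All 3 genes stayed high at day 5, unlike Cyp1a1.

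Cyp2s1, another cytochrome P450 that the receptor is known to induce, went the other way. It had 19.5, 12.7 and 26.5 RPKM at day 0, 3.43, 2.56 and 5.52 at day 1 and 18, 33.2 and 33.5 at day 5. It fell by 2.08 ± 0.43 to day 1 (limma adjusted p = 0.00382) and rose by 2.59 ± 0.43 from day 1 to day 5 (adjusted p = 0.00117), and both calls held under all 26 alternatives. The other 2 genes called between days 0 and 1 lie outside the naming rule and were chosen after their values were seen. They were Ereg, an EGF family ligand, which rose from 0.134 ± 0.215 to 1.75 ± 1.59 RPKM (limma adjusted p = 0.0479), and Cdkn1b, a cell cycle inhibitor, which fell from 18.2 ± 3.14 to 8.55 ± 2.34 (adjusted p = 0.0111). The call of Ereg ended on leaving out any 1 of 13 libraries (0.0504 to 0.227) and that of Cdkn1b without day 1 replicate 3 (0.056). Ereg passed the filter through libraries in which it was high.

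Between day 1 and day 5, Ereg fell by 1.13 ± 0.38 (limma adjusted p = 0.0391, lost on leaving out any 1 of 5 libraries, 0.0662 to 0.153). Rnf43, a ubiquitin ligase that removes Wnt receptors, fell by 1.31 ± 0.46 (adjusted p = 0.0447, lost on leaving out any 1 of 9 libraries, 0.0514 to 0.133). Between day 0 and day 5, Ugdh, which makes UDP-glucuronic acid, rose from 69.9 ± 12.9 to 219 ± 23.6 RPKM (adjusted p = 0.00884; with the 12 DNase-treated libraries, 0.0629), and Xdh rose to 22.9 ± 5.5 (adjusted p = 0.0104). Nqo1 rose to 77.9 ± 17.3 RPKM (limma adjusted p = 0.0118), which was lost without day 0 replicate 3 (0.0506), without day 5 replicate 1 (0.0529) and in the DNase-treated libraries alone (0.0627). The gene that fell was Znrf3, also a ubiquitin ligase of Wnt receptors, at 3.22 ± 0.571 and 1.48 ± 0.342 RPKM (limma adjusted p = 0.0273, lost on leaving out any 1 of 4 libraries, 0.0574 to 0.117). The glucuronosyltransferase Ugt1a6a had 85.3 ± 10.3 RPKM at day 0 and 85.2 ± 19.7 at day 1. It shares exons with other Ugt1a genes, so its value is uncertain.

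Cyp1a2, which lies beside Cyp1a1 and is transcribed away from it, was below the filter. It had 0, 0 and 0.0115 RPKM at day 0, 0.206, 0.31 and 0.304 at day 1, and 0.0101, 0.0123 and 0.0332 at day 5. All 3 libraries of day 1 were above every other library of the series. Its promoter window of 250 bases held no GCGTG.

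**Figure D4:**
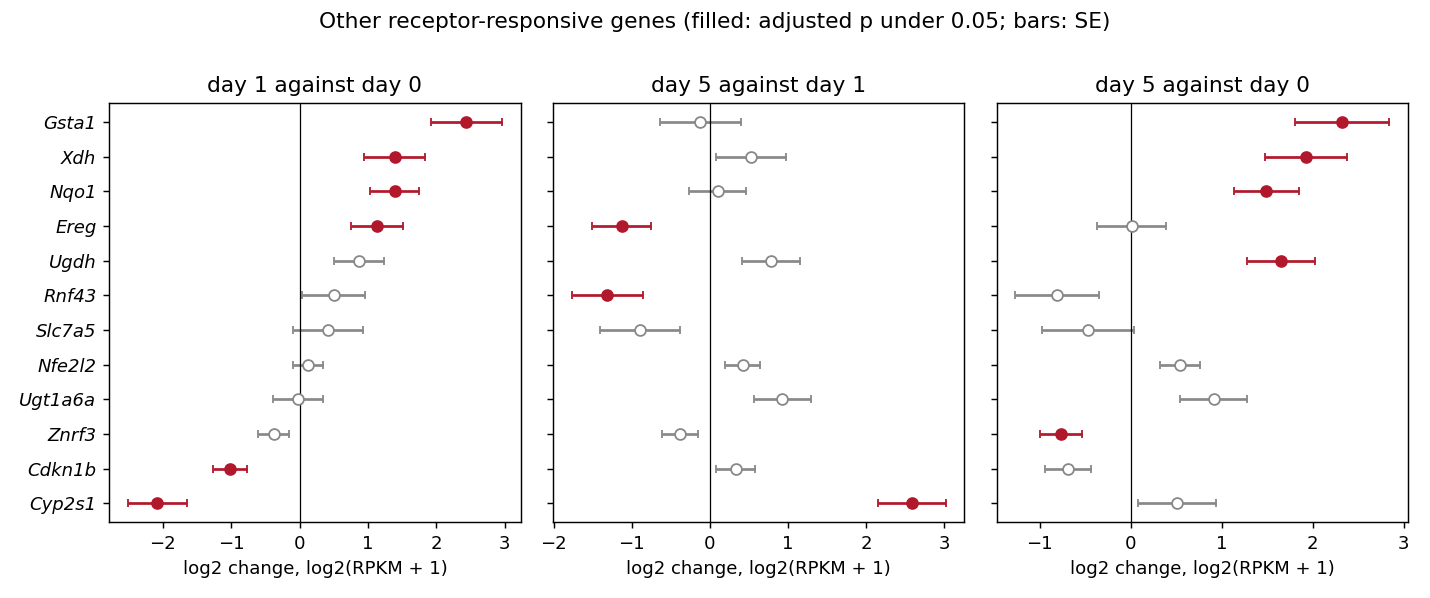
Change on the log2(RPKM + 1) scale, later day minus earlier day, of the 12 other receptor-responsive genes tested, in 3 comparisons of days; bars are the SE and filled points have an adjusted p under 0.05 by limma. Gsta1, Xdh and Nqo1 are called higher at day 1 and at day 5 than at day 0, and Cyp2s1 falls in the left panel and rises in the middle one.

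Of 12 listed chaperones and co-factors, which hold the receptor or act with it, all were tested, and 0 rose and 2 fell from day 0 to day 1 (median 0.03, against -0.00 over all genes, of which 18.6% were called), and 0 rose and 3 fell from day 1 to day 5 (median -0.40 against -0.15, with 27.8% of all genes called). Ncoa1, a coactivator, had 7.54, 6.98 and 7.85 RPKM at day 0 and 4.33, 3.09 and 3.19 at day 1, and fell by 0.91 ± 0.17 (log2, SE; limma adjusted p = 0.00257). Ncoa2, of the same family, fell by less, and its call (adjusted p = 0.0439) did not survive leaving out any 1 of 10 libraries (0.0511 to 0.172). The chaperone Hsp90ab1 ranged from 415 to 1147 RPKM over the 18 libraries. It had 967 ± 135 RPKM at day 1 and 650.2 ± 77.8 at day 5, a change of -0.57 ± 0.28 that was not called (limma adjusted p = 0.128).

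From day 1 to day 5, Hsp90aa1, the inducible HSP90, fell by 1.21 ± 0.29 from 39.5 ± 4.53 to 16.6 ± 3.01 RPKM (limma adjusted p = 0.00956). Arnt2, a second partner of the family, fell by 1.40 ± 0.34 from 4.48 ± 1.12 to 1.09 ± 0.491 (adjusted p = 0.0103; with the 12 DNase-treated libraries, 0.061). The third was Ncoa3 (adjusted p = 0.04, lost on leaving out any 1 of 6 libraries, 0.0518 to 0.169). In limma no gene of any list, and none of the 11111, was called between day 1 and day 2, the day after CHIR99021 was left out. There 263 of the 11111 had an unadjusted p under 0.05, a share smaller than the 0.05 that would arise without any change. The fit took 1 estimate of spread for each gene over all 6 days, and so small a share does not show that nothing changed. Cyp1a1, not called here, differed by -1.43 ± 0.76 (log2, SE).

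CHIR99021 blocks GSK3, which raises beta-catenin and the targets of Wnt, and 11 such genes were followed beside the members. Of 7 tested, 2 rose and 1 fell from day 0 to day 1, with a median change of 0.50 (against -0.00 over all genes, of which 9.54% were called higher and 9.05% lower). Those that rose were Sp5 (limma adjusted p = 0.0478) and Ascl2 (adjusted p = 0.0477). The call of Sp5 was lost on leaving out any 1 of 13 libraries (0.0514 to 0.202) or with a factor for the mouse (0.0551). That of Ascl2 was lost on leaving out any 1 of 11 (0.0539 to 0.201). Of the fits with 1 library left out, both calls were weakest without day 0 replicate 1. That library had 0.0565 RPKM for Sp5 (replicates 2 and 3, 1.65 and 1.25) and 0.294 for Ascl2 (4.4 and 3.71). Both calls were also lost in the DNase-treated libraries alone (limma adjusted p = 0.137 for Sp5 and 0.241 for Ascl2) and without the filter (0.0751 and 0.0812). Of the 4 not called, Tcf7 and Rnf43 changed by 0.71 and 0.50, and Axin2 and Znrf3 by -0.35 and -0.38. Lgr5, the stem cell receptor for R-spondin, fell by 2.40 (limma adjusted p = 0.0316). That call was lost on leaving out any 1 of 4 libraries (0.0546 to 0.152) and with a factor for the mouse (0.058). Lgr5 had 1.33, 28.3 and 32 RPKM in replicates 1, 2 and 3 at day 0 and 2.64, 2.36 and 0.262 at day 1. The ranges overlapped, and replicate 1 was higher at day 1. The median change of the 7 tested from day 1 to day 2 was -0.56, with none called. From day 1 to day 5, when 27.8% of all genes were called, the 2 called were Rnf43, given above, and Tcf7, a transcription factor of the pathway, which fell from 7.06 ± 0.593 to 1.83 ± 0.227 RPKM (limma adjusted p = 0.0154, and 0.0522 without day 5 replicate 1).

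The genes whose level across the 18 libraries was most like that of Cyp1a1 were Psmc1 and Psmd4, subunits of the 26S proteasome, Elovl1, a fatty acid elongase, Timm17a, a mitochondrial import subunit, Eaf1, B4galt6, Rnf10 and Exoc3. Their Pearson r on the log2 scale was 0.94 to 0.96, and the libraries share days and mice. The likeness is in the pattern over the 18 libraries and not in the size: Psmc1 ran from 46.9 to 97 RPKM and Cyp1a1 from 0.42 to 194. B4galt6, a galactosyltransferase, had day means of 14.2, 45.2, 39.7, 31.7, 23.5 and 16.1 RPKM from day 0 to day 5. Most like Arnt were Cux1 (0.97), Plch2 (0.94) and Tada3 (0.93), each highest at day 0. For Cyp1b1 they were Mdfi (0.93), Tnni2 and Paox (both 0.90), for Tiparp Dpyd, Ctrb1 (both 0.88) and Reg1 (0.87), and for Ahr Ap4b1 (0.83), Usp40 and Rsc1a1 (both 0.82).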

How the data were processed

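Polyadenylated RNA of 18 mouse organoid libraries was sequenced. Gene-level RPKM values were deposited by the authors. Per the submitters' processing notes, the tools were STAR 2.5.2b, edgeR 3.20.5 and bcl2fastq 2.17, with build mm10. Of the annotation, the use of strand and any library size factor nothing is stated. Log2(RPKM + 1) was tested with limma 3.58.1 (R 4.3.3) with a mean trend, in 1 model of all libraries with a coefficient for each day, on the 11111 genes with at least 1 RPKM in 3 libraries, with Benjamini-Hochberg adjustment over all of them and calls at an adjusted p under 0.05. This scale understates changes of low genes. The steps were tested on simulated data. Values of some listed genes are not reported here.

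Read depth was recovered from low values, which are whole multiples of 1 read, using annotated exon lengths (55 to 105 genes a library, relative tolerance 2e-05). Reads of a member are implied by this depth.

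The members and lists were chosen with earlier results of these data known. Named were all 7 members, from each list up to 4 called genes with the highest absolute change in a contrast, and the genes most correlated with each tested member (8 for Cyp1a1, 3 for the others) with a day mean of at least 5 RPKM. Members, pseudogenes and genes with clone or predicted-gene names were left out of the correlated genes. The titles pair replicates by mouse at days 0 and 5. Deviations from the day means correlated at -0.08, 0.09 and -0.21 in the 3 replicate pairs of days 0 and 1, at 0.14, -0.04 and 0.31 for days 0 and 5, and at 0.48, -0.07 and 0.30 for days 2 and 5. For days 1 and 2 they correlated at 0.74, -0.07 and -0.52, and for days 1 and 5 at 0.24, 0.34 and -0.14. Alternatives were a pseudocount of 0.1, no filter, rescaled libraries, a replicate block, a factor for the mouse, the DNase-treated libraries alone, and each library left out in turn; leaving out 3 libraries together, for 2 sets of 3, was added after the data were seen.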

Additional observations from a re-analysis of the deposited data

How the results depend on the processing

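Of 40 calls of named genes and comparisons, 15 held under every alternative, 25 were lost under at least 1, and 0 changed direction. Leaving out each library in turn gave 2 to 6 called among the other receptor-responsive genes from day 0 to day 1 (6 with all libraries), 1 to 4 from day 1 to day 5 (3 with all) and 3 to 7 from day 0 to day 5 (5 with all). The first count was 3 without day 0 replicate 2 or 3 and 2 without day 1 replicate 3. The second was 1 without day 1 replicate 1 or any replicate of day 5, and the third was 3 without day 0 replicate 3 or day 5 replicate 1. Between days 2 and 5 the members gave 1 to 2 calls (2 with all); it was 1 without replicate 2 of day 0 or of day 1, replicate 1 or 3 of day 2, replicate 3 of day 3 or any of day 5, and 1 without the filter. The log2 difference of Cyp1a1 between days 1 and 0 was 5.85 to 6.50 (6.12 with all). In the DNase-treated libraries alone, 1 responsive gene was called between days 1 and 5 and 2 between days 0 and 5. In 2 alternatives chosen after the data were seen, 8 were called between days 0 and 5 on leaving out replicate 1 of day 0, 2 of day 3 and 3 of day 4, and 7 on leaving out replicate 2 of day 2 and replicate 1 of days 3 and 4. The cause of these changes was not tested. With the replicate block the responsive genes gave 5, 3 and 6 calls in the 3 comparisons and the members 2, and with a factor for the mouse the responsive genes gave 5, 4 and 5; between days 0 and 1 the block ended the call of Xdh (adjusted p = 0.0511), and the factor for the mouse those of Xdh (0.075), Lgr5 (0.058) and Sp5 (0.0551). Depth limits Aldh3a1, Cyp1b1 and Ahrr, whose values at days 0 and 5 rest on at most 60 reads a day.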

Other observations

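Of 15 other listed genes related to the receptor by the PAS domain, 10 were tested. They include Per1, Per2 and Per3, which share this domain but are not bHLH factors. These Per genes and Hif3a were the ones that fell. From day 0 to day 1, 0 rose, 4 fell and 6 were not called (median change -0.56, against -0.00 over all genes tested, of which 9.54% were called higher and 9.05% lower). Hif3a, a hypoxia-inducible factor subunit, had 11.5, 6.97 and 3.56 RPKM at day 0 and 1.04, 1.02 and 0.466 at day 1, a fall of 2.08 ± 0.40 (log2, SE; limma adjusted p = 0.00287). The clock repressors Per2, from 9.1 ± 1.99 to 2.94 ± 0.444 RPKM (limma adjusted p = 0.00131), Per3, from 2.81 ± 1.03 to 0.578 ± 0.194 (adjusted p = 6.49e-04), and Per1, from 9.77 ± 1.48 to 5.19 ± 0.745 (adjusted p = 0.00546), fell with it. From day 1 to day 5, Per3 rose by 1.07 (limma adjusted p = 0.00235) and Epas1 by 1.04 (adjusted p = 0.0483, lost on leaving out any 1 of 11 libraries, 0.0526 to 0.147).

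Enzymes that make kynurenine, a ligand of the receptor, from tryptophan or convert it further were mostly too low to test: 3 of 12 passed the filter. Kyat1, an aminotransferase that uses kynurenine, had 9.51, 12.5 and 13.1 RPKM at day 0, 6.03, 6.73 and 7.5 at day 1 and 14, 11.9 and 13 at day 5. It fell by 0.71 ± 0.17 and then rose by 0.85 (limma adjusted p = 0.00935 and 0.00409), and both calls held under all 26 alternatives.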
